A study of Mus musculus with 4 samples.

Results

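The BCL2 family in 5TMM mouse bone marrow was described here through 10 genes, namely Bcl2, Mcl1, Bcl2l1, Bcl2a1a, Bcl2a1b, Bcl2a1d, Bak1, Bcl2l11, Bid and Bmf. They were taken by gene symbol from the 32285 genes of the deposited count tables, and all 10 were present. The data came from 4 mice, 2 treated with vehicle and 2 with PM (purinostat mesylate, an inhibitor of class I and IIb histone deacetylases) at 10 mg/kg, and the marrow was collected 24 h after treatment. All 4 mice carried myeloma: luciferase-bearing 5TGM1 cells, a mouse myeloma line, had been injected intravenously into C57BL/KawRij mice aged 6 weeks, 3 weeks before the treatment. There was therefore no healthy marrow, and the plasma cells taken here as normal were those of tumor-bearing mice. Red cells were lysed and the remaining cells were profiled unsorted by droplet-based single-cell RNA sequencing, with 1 library per mouse.

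Members of the BCL2 family decide at the mitochondrion whether a cell lives or dies. The anti-apoptotic proteins BCL2, MCL1, BCL-XL (from Bcl2l1) and A1 (from the Bcl2a1 genes) hold in check the effectors BAK and BAX, which otherwise open the outer mitochondrial membrane and let cytochrome c reach the caspases. BH3-only proteins such as BIM (from Bcl2l11), BID and BMF bind the anti-apoptotic members, and some of them also switch on the effectors. In marrow, neutrophils and plasma cells are known for their need of MCL1, naive lymphocytes for their need of BCL2, and pre-B cells pass through a stage kept alive by BCL-XL.

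On GRCm38 (GENCODE annotation), the anti-apoptotic genes lie on chromosome 1 at 106538178 to 106714274 (Bcl2, ENSMUSG00000057329), chromosome 3 at 95658788 to 95663176 (Mcl1, ENSMUSG00000038612) and chromosome 2 at 152780668 to 152831728 (Bcl2l1, ENSMUSG00000007659). The A1 genes sit close together on chromosome 9, at 88723285 to 88731914 (Bcl2a1d, minus strand), 88956900 to 88962419 (Bcl2a1a, plus strand) and 89199209 to 89207827 (Bcl2a1b, plus strand). Bak1 is on chromosome 17 at 27019810 to 27029009. Of the BH3-only genes, Bcl2l11 is on chromosome 2 at 128126038 to 128162547, Bmf on the same chromosome at 118528757 to 118549687, and Bid on chromosome 6 at 120891930 to 120916853. Genes on the opposite strand that are also in the count tables overlap Bcl2 (D630008O14Rik), Bid (Bcl2l13), Bak1 (Ggnbp1) and Bcl2a1d (Gm10634).

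The A1 copies are nearly the same gene. Their transcripts, of 819, 817 and 863 bases, agreed at 98.2% of aligned bases for Bcl2a1a with Bcl2a1b, 98.8% for Bcl2a1a with Bcl2a1d and 99.1% for Bcl2a1b with Bcl2a1d. Of the stretches of 90 bases in the last 300 bases of each transcript, 39.8% (Bcl2a1a), 50.2% (Bcl2a1b) and 89.6% (Bcl2a1d) were found unchanged in another copy, so a read there cannot be given to 1 gene. The division of counts among the copies is therefore uncertain, most of all for Bcl2a1d, and their summed count is given beside them. How such reads were counted was not examined, and any that were left uncounted are missing from the sum too. Their promoters are shown because the copies shared their highest level, in non-classical monocyte-like cells, and that of Bcl2l11 because its level after PM was called in a pair of cell types below. The sequences are from RefSeq on GRCm38.p6, 250 bases before and 50 bases after the annotated start of transcription, in the direction of transcription, at chr9:88956670-88956969 (plus strand, Bcl2a1a), chr9:89199023-89199322 (plus strand, Bcl2a1b), chr9:88731801-88732100 (minus strand, Bcl2a1d) and chr2:128125788-128126087 (plus strand, the first of 2 Bcl2l11 windows). Capitals mark GAGGAAGT, letters of the kind bound by PU.1, a myeloid and B cell transcription factor, in the A1 copies, and GTAAACA, letters of the kind bound by FOXO factors, in Bcl2l11.
Bcl2a1a: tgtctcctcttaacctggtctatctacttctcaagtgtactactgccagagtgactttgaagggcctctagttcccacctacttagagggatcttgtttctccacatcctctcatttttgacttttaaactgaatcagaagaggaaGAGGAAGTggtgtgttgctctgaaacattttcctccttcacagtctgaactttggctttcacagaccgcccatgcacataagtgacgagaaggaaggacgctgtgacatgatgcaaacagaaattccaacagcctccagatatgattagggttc
Bcl2a1b: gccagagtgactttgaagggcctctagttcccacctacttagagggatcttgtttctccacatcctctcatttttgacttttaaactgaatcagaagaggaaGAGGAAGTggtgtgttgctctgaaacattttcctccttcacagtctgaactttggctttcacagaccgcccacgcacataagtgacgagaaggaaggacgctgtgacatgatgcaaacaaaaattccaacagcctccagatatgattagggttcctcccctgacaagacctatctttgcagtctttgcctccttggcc
Bcl2a1d: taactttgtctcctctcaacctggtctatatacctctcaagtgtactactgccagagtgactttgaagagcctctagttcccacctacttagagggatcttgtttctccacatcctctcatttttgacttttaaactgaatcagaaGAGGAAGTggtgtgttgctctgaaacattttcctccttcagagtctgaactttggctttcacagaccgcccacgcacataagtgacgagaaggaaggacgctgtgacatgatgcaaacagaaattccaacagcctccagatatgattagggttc
Bcl2l11: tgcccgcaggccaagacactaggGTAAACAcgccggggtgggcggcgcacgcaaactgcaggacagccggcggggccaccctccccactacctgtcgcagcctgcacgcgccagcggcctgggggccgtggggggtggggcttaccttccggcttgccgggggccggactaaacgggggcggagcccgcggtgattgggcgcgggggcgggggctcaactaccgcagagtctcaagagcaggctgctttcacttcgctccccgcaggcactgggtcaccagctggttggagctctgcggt
The aligned parts of the A1 promoters agreed at 99.2% (a with b), 98.0% (a with d) and 98.8% (b with d). On either strand, GAGGAAGT was in 3.2% of 32851 promoter windows of the genome and in 4 of the 15 windows of the 10 members, those of the A1 copies and of Bak1. GTAAACA was in 3.65% of all windows and in 1 of the 15. The kB motif, the site of NF-kB factors, was in 0.155% of all windows and in none of the 15. The letters searched were chosen with these sequences in view, and a match describes the sequence only.

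The libraries held 8242 to 13848 barcodes and 69828595 to 109447030 UMIs (unique molecular identifiers, each counting 1 captured transcript). Kept cells numbered 9261 and 7826 with vehicle and 13387 and 9269 with PM, with medians of 6067 and 5330.5 against 4717 and 4805 UMIs. From 18 to 39 barcodes were shared by any 2 libraries. Clusters were named from marker lists and are called "like" a cell type for that reason, and the members and other BCL2 family genes were left out of the clustering. Of the named types, 20 had at least 10 cells in every mouse. Transcripts of a neutrophil list served as a measure of free RNA from the most abundant cells. They took 1.34‰ to 15.5‰ of the non-immunoglobulin UMIs of clonal cells and 15.3‰ to 51.2‰ of those of non-clonal plasma-like cells. Levels are CPM, counts per 1000000 UMIs, of a cell type's summed counts in 1 mouse, without immunoglobulin genes, and they are compared for 1 gene across cells, never between genes. Intervals and floors given in the text cover counting error only.

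Each anti-apoptotic gene had its highest level in a different kind of cell. Bcl2, the founding member, was highest in T-like cells, at 1012 and 819.8 CPM with vehicle and 1054 and 1179 CPM with PM. NK-like cells followed with 643 to 1141 CPM and overlapped with T-like cells, and stem and multipotent progenitor-like cells stood below both, with 268 to 284 CPM. Mature B-like cells came next (181 to 264 CPM), separate from the stem-like cells above and from the plasmacytoid dendritic-like cells below (121 to 149.7 CPM). The lowest level was in mature neutrophil-like cells, from 0.759 to 2.17 CPM, so the means of the highest and the lowest type differed 602-fold. These levels carry no test, and 13 of the 19 neighbours in this order overlapped.

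**Figure D1:**
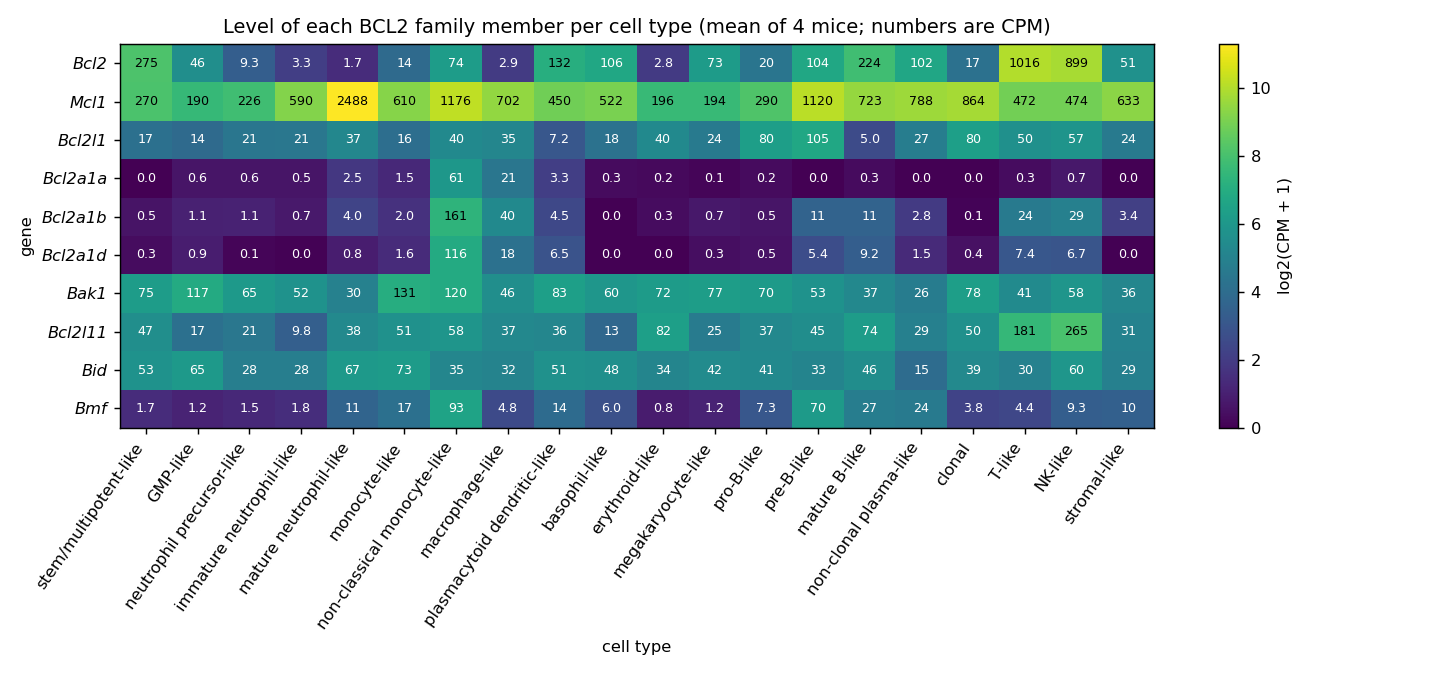
Mean level of each of the 10 genes (rows) in 20 cell types (columns) over 4 mice, with CPM printed in each field and colour showing log2(CPM + 1). Read along a row, Bcl2 peaks in T-like and NK-like cells (1016 and 899 CPM), Mcl1 in mature neutrophil-like cells (2488 CPM) and the A1 copies in non-classical monocyte-like cells.

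Mcl1 had the opposite place. Its level in mature neutrophil-like cells was 2523 and 2518 CPM with vehicle and 2207 and 2705 CPM with PM, above every other type in every mouse. Non-classical monocyte-like cells (1054 to 1374 CPM) and pre-B-like cells (974 to 1259 CPM) were next and overlapped. Granulocyte-monocyte progenitor-like cells, the myeloid precursors, had the lowest level with 163 to 218 CPM, and the range from highest to lowest mean was 13.1-fold.

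Bcl2l1 had its highest mean in pre-B-like cells (168 and 163 CPM with vehicle, 34.2 and 55.7 CPM with PM), which were far apart between the groups. Clonal cells (62.4 to 101 CPM) and pro-B-like cells (66.1 to 94.4 CPM) followed by mean, and both lay above the pre-B-like cells of the PM mice. Mature B-like cells, the next stage of the same lineage, had the lowest mean of all types, with 0, 5.69, 6.28 and 8.02 CPM. In the first vehicle mouse this was 0 UMIs in 119 cells.

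The A1 genes were highest in mononuclear phagocytes, followed by some lymphocytes. Summed over the copies, non-classical monocyte-like cells had 384 and 461 CPM with vehicle and 279.8 and 228 CPM with PM, and macrophage-like cells 62.3 to 92.3 CPM. Monocyte-like cells of the classical kind had 3.62 to 7.67 CPM, below both in every mouse. NK-like cells (25.9 to 45.8 CPM) and T-like cells (25.5 to 39.9 CPM) overlapped. The copies were not divided alike in these cells: T-like cells held 27, 29, 56 and 31 UMIs of Bcl2a1b and 0, 0, 2 and 1 UMIs of Bcl2a1a, while non-classical monocyte-like cells held 46, 45, 28 and 15 UMIs of Bcl2a1b and 33, 13, 4 and 7 of Bcl2a1a. Clonal cells held 0, 2, 1 and 0 UMIs of the A1 copies together and non-clonal plasma-like cells 1, 3, 2 and 2, so that both were at or under the floor of 3 UMIs.

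Bak1, the effector, and Bid varied less between cell types than the other members. Bak1 ranged 5.06-fold, from 117 to 145 CPM in monocyte-like cells to 17.4 to 38.4 CPM in non-clonal plasma-like cells. Bid, which links death receptors to mitochondria, ranged 4.88-fold, with monocyte-like cells (65.7 to 82.8 CPM) at the head and non-clonal plasma-like cells (10.2 to 20.7 CPM) again last. For both genes 18 of 19 neighbours in the order overlapped.

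The other BH3-only genes varied more. Bcl2l11 was highest in NK-like cells (233, 211, 239 and 377 CPM) and T-like cells (281, 151, 141 and 152 CPM), which overlapped and stood above all other types. Immature neutrophil-like cells had the lowest level, 8.19 to 11.2 CPM. Bmf ranged 113-fold, from non-classical monocyte-like cells (78.1 to 114 CPM) and pre-B-like cells (49.3 to 85.5 CPM) to erythroid-like cells (0.547 to 1.22 CPM). Pre-B-like cells did not overlap with mature B-like cells below them, of 10.6 to 33.1 CPM.

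The order of the 20 types was used to look for genes with a like pattern, by Pearson's r of log2(mean CPM + 1) among 10239 genes. All points share the same 4 libraries, and r is given as a description. Bcl2 was most like Tbc1d22b (r = 0.895) and Adora2a (0.888), Mcl1 most like Gdpd3 (0.887) and Myadm (0.870), and Bcl2l1 most like Polm (0.637) and Rbm24 (0.566). Bcl2a1b was most like Abcg3 (0.938) and Bcl2a1d (0.935), Bcl2a1d most like Bcl2a1b and then Abcg3 (0.900), and Bcl2a1a was closest to Dppa3 (0.924) and Lilra5 (0.910). Bak1 was most like Ciao2a (0.870) and Trappc1 (0.849), and Bid most like Dhx38 (0.740) and Ccdc12 (0.713). Bcl2l11 was closest to Arl4d (0.812) and Nlrc5 (0.799), and Bmf to Nfkb2 (0.872) and Tsc22d3 (0.853). Within the family, the highest value outside the A1 copies was that of Mcl1 with Bmf, 0.713.

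Plasma cells were divided by their immunoglobulin transcripts into clonal ones, taken as myeloma, and non-clonal ones, taken as normal. The study inferred copy number changes in all of its plasma cell clusters and regarded all of these cells as neoplastic. Copy number was not examined here, so that the non-clonal cells are normal was not tested. Cells of the plasma clusters with Ighg2b as leading heavy-chain gene and Igkv10-96 as leading light-chain V gene were taken as clonal, 19 and 27 with vehicle and 85 and 27 with PM. Non-clonal plasma-like cells, with another light-chain V gene, numbered 37, 52, 77 and 43, and 30 cells stayed unclassed. Ighg2b was not particular to clonal cells, at 13030 to 19280 CPM in these and 61600 to 104400 CPM in non-clonal cells. Of 171 cells in the cluster that held all 158 clonal cells, too few plasma cell markers were raised for the name plasma-like. Sdc1, the CD138 marker, was present in clonal cells at 320 to 503 CPM (478 to 633 CPM in non-clonal cells), but Tnfrsf17, the BCMA gene, was at 0 to 1.37 CPM against 152 to 263 CPM. The other markers of the list were also lower in clonal cells, without overlap. Jchain was at 121 to 2541 against 91410 to 154000 CPM and Xbp1 at 764 to 1263 against 2862 to 4956 CPM. Mzb1 was at 8.88 to 122 against 2007 to 3742 CPM and Derl3 at 0.683 to 1.78 against 409 to 628.5 CPM. Mki67, a gene of cycling cells, was at 287 to 451 CPM in clonal and 30.7 to 115 CPM in non-clonal cells. No mouse overlapped between the classes for Tnfrsf17 or Mki67, and the part of cycling and maturity in the results below was not tested.

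As a share of non-immunoglobulin UMIs, clonal cells had less Bcl2 and Bmf and more Bcl2l1, Bak1 and Bid than non-clonal plasma-like cells. Mcl1 and Bcl2l11 overlapped. Clonal cells were the deeper ones, with medians of 29620 to 40930 UMIs per cell against 15160 to 22700. Immunoglobulin took 4.03% to 5.10% of their UMIs against 48.95% to 58.16%. UMIs of Bcl2 were found in 39.9% of clonal and 46.4% of non-clonal cells. The shares therefore do not give amounts per cell, which were not tested. Bcl2 was at 24.9, 15.2, 23.6 and 5.54 CPM in clonal cells (in the order vehicle 1, vehicle 2, PM 1, PM 2) and at 75.9, 157, 103 and 74.3 CPM in non-clonal cells, with no overlap. The log2 fold change was −2.86 (SE 0.30, adjusted p = 2.697e-06, edgeR's quasi-likelihood test with Benjamini-Hochberg adjustment over all genes tested). Bmf was at 3.55, 3.37, 5.46 and 2.77 CPM in clonal and 41.4, 19.6, 26.2 and 7.68 CPM in non-clonal cells. Every clonal value lay below every non-clonal value (log2 fold change −2.68, SE 0.48, adjusted p = 2.072e-04). These are few UMIs, 2, 4, 16 and 3 in clonal and 18, 9, 16 and 3 in non-clonal cells, with both classes of PM mouse 2 at the floor of 3 UMIs. Bmf passed the filter on low counts only through the non-clonal cells, where it was higher.

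Bcl2l1 went the other way, with 101, 62.4, 77.5 and 80.3 CPM in clonal and 52.9, 13.05, 13.08 and 28.2 CPM in non-clonal cells (log2 fold change 1.43, SE 0.28, adjusted p = 3.856e-04). Bak1 was close to constant in clonal cells, at 85.3, 75.1, 75.4 and 76.7 CPM, against 23.0, 17.4, 24.5 and 38.4 CPM (1.33, SE 0.24, adjusted p = 2.374e-04). Bid was at 33.8, 31.2, 42.7 and 47.1 CPM against 20.7, 10.9, 18.0 and 10.2 CPM (1.09, SE 0.30, adjusted p = 0.00585), and this is the only one of these calls that DESeq2 did not make. The classes did not overlap for any of these 3 genes.

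Mcl1, the member that plasma cells are known to need, was at 1206, 842, 644 and 764 CPM in clonal and 1021, 702, 675 and 753 CPM in non-clonal cells, which overlapped (log2 fold change −0.17, SE 0.12, adjusted p = 0.231). The fold changes between these classes are taken after edgeR's TMM scaling and are not ratios of the CPM. That of Mcl1 is negative although its CPM was higher in clonal cells in every mouse but PM mouse 1. Bcl2l11 was at 51.5, 46.4, 37.9 and 65.6 CPM against 50.6, 23.9, 32.7 and 7.68 CPM and overlapped as well (0.50, SE 0.34, adjusted p = 0.217). The A1 copies did not pass the filter on low counts. In all, 7 of the 10 members were tested and 5 called, 3 higher and 2 lower, while 56.1% of the 7995 genes tested were called between these classes, 28.2% higher and 27.9% lower (45.3% in all with DESeq2). The 5 calls remained without the cells in which neutrophil transcripts exceeded 2% of non-immunoglobulin UMIs and with the classes taken by cluster.

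**Figure D2:**
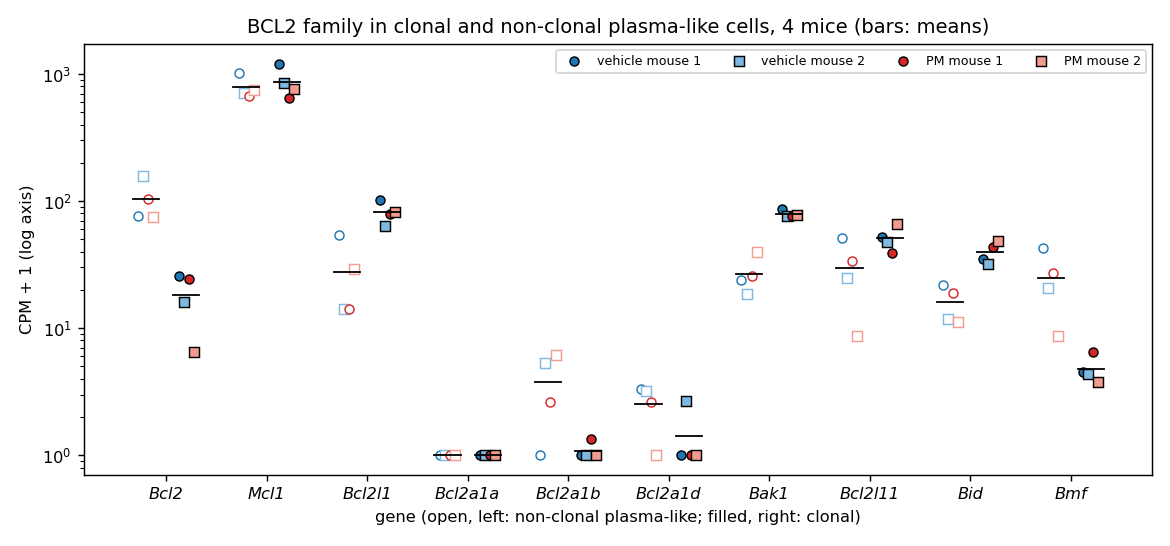
Level of each gene in each mouse (CPM + 1, log axis) in non-clonal plasma-like cells (open symbols, left) and clonal cells (filled symbols, right), with bars at the means. For Bcl2 and Bmf all 4 clonal values lie below the non-clonal ones, and for Bcl2l1, Bak1 and Bid all 4 lie above.

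Other genes of the pathway also differed between the classes in both directions. Of 15 other BCL2 family genes, 8 were tested: Bax, the second effector, was higher in clonal cells (log2 fold change 0.92) and 3 were lower, with a median of −0.23 over those tested against 0.04 over all genes. The lower ones were the mitophagy receptor gene Bnip3l (−1.77), Bcl2l2 (−1.07), which encodes anti-apoptotic BCL-W, and Bcl2l15, with 0, 0, 1 and 2 UMIs in clonal and 9, 21, 3 and 4 in non-clonal cells. Downstream of mitochondria, 3 of 11 tested genes were higher, Birc5 (2.98), Cycs for cytochrome c (1.67) and Aifm1 (1.19). Another 3 were lower (median of the list −0.21), among them the inhibitor of apoptosis genes Birc3 (−1.90) and Birc2 (−1.41). Birc5 encodes survivin, which also acts in mitosis, and it stood with Mki67, also higher in clonal cells. Among 10 regulators of MCL1 and BIM levels, all tested, Dynll2 (1.85) and Bag3 (1.64) were higher and Foxo3 (−2.04), Trib1 (−0.88) and Trib2 lower (median 0.01). Trib2 had 0 UMIs in the clonal cells of all 4 mice and 10, 5, 6 and 8 in non-clonal cells. Dynll2 encodes a dynein light chain that binds BMF, and Foxo3 a factor known to drive Bcl2l11.

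The next comparisons follow the family through normal development. Mature B-like cells had more Bcl2 and Bcl2l11 and less Bcl2l1 and Bak1 than early B-like cells, that is pro-B-like and pre-B-like cells of the same mouse, summed. Bcl2 was at 181, 216, 264 and 236 CPM in mature B-like cells, against 5.44 to 27.2 CPM in pro-B-like and 48.0 to 161 CPM in pre-B-like cells. No mouse of the early types, each taken whole, reached the mature level (log2 fold change 1.96, SE 0.16, adjusted p = 1.823e-08, edgeR's quasi-likelihood test). The pre-B-like class was mixed, however. Its Ms4a1-led part, described below and named mature B-like at a finer clustering, had 214, 111, 180.4 and 134 CPM of Bcl2 and overlapped with mature B-like cells. Its Rag1-led part had 2.39 to 31.6 CPM. The stages were not compared again without the Ms4a1-led part, whose share differed between the groups of mice. Bcl2l1 was lower, at most 8.02 CPM against the pre-B-like and pro-B-like levels given above (−3.57, SE 0.28, adjusted p = 1.823e-08). Bcl2l11, at 71.0, 58.3, 81.2 and 87.2 CPM in mature B-like cells, was higher by 1.03 (SE 0.21, adjusted p = 0.00102). Pre-B-like cells had 69.1 and 59.1 CPM of Bcl2l11 with vehicle, close to the mature level, and 24.9 and 28.5 CPM with PM. The gap to pre-B-like cells was thus seen in the PM mice only. Bak1 was lower by a log2 fold change of −0.71 (SE 0.17, adjusted p = 0.00288).

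Of the 9 members tested between these stages 4 were called, 2 higher and 2 lower, and 37.1% of 9834 genes were, 17.0% higher and 20.1% lower (28.2% in all with DESeq2, which made the same 4 calls). Bcl2a1d (1.43, adjusted p = 0.0556) and Bcl2a1b (1.09, adjusted p = 0.0616) missed the threshold, as did Bmf (−0.37, adjusted p = 0.190), Bid and Mcl1. Among the other family genes, 2 of 10 tested were higher, Pmaip1 (2.55), the gene of the BH3-only protein NOXA, and Bcl2l2 (1.03), and 3 lower, Bcl2l12 (−1.19), Bad (−1.03) and Bok, with 0, 13, 16 and 15 UMIs in early and 0, 0, 0 and 1 in mature B-like cells (median −0.30). The downstream genes were more often lower, 6 of 15 (among them Birc5 −4.29, Cycs −1.31, Aifm1 −0.98 and Apaf1 −0.80) against 2 higher (Birc3 0.89 and Casp6 0.67). Their median was −0.37, and that of all genes −0.02. Of the regulators, Usp9x (0.57) and Foxo3 (0.55) were higher and Trib1 (−1.29) lower, among 9 tested.

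Every member tested was called between the ends of neutrophil maturation. From neutrophil precursor-like to mature neutrophil-like cells, Mcl1 rose from 264, 208, 190.1 and 244 CPM to the level given above, with immature neutrophil-like cells in between at 638, 494, 548 and 679 CPM. The stages did not overlap (log2 fold change from precursor to mature 3.95, SE 0.11, adjusted p = 9.86e-10). Bcl2 fell from 11.6, 9.77, 5.58 and 10.1 CPM to 0.759, 1.97, 1.86 and 2.17 CPM (−2.00, SE 0.34, adjusted p = 2.659e-04). Bmf rose from 0.672, 1.14, 2.40 and 1.70 CPM to 6.68, 11.3, 16.3 and 11.4 CPM (3.45, SE 0.22, adjusted p = 1.871e-07), the largest rise among the members after that of Mcl1.

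Bid (1.76, SE 0.16), Bcl2l11 (1.29, SE 0.17) and Bcl2l1 (1.26, SE 0.18) rose as well, and Bak1 was lower by −0.70 (SE 0.14). The CPM are shares of UMIs, but the fold changes are taken after TMM scaling, so they differ from ratios of the CPM. Bak1 was at 69.7, 64.7, 60.1 and 67.2 CPM in precursor-like and 35.4, 38.4, 20.1 and 24.6 CPM in mature neutrophil-like cells, a larger fall than its fold change. Median UMIs per cell were 13400 to 16630 in precursor-like and 2134 to 3160 in mature neutrophil-like cells. UMIs of Bid were found in 32.1% and 16.1% of these cells, of Bcl2l11 in 24.6% and 8.33% and of Bcl2l1 in 25.1% and 9.63%. Mcl1 went from 88.7% to 98.5% and Bmf from 2.05% to 2.93%. Amounts per cell were not tested. Bcl2l11 was not steady along the way, with 17.7 to 24.0 CPM in precursor-like, 8.19 to 11.2 CPM in immature and 27.6 to 59.6 CPM in mature neutrophil-like cells, which did not overlap. Bcl2a1a (2.40, SE 0.44) and Bcl2a1b (2.20, SE 0.32) rose from low levels, at most 1.20 CPM in precursor-like cells, and Bcl2a1d was not tested. The clusters of the mature class were not alike. In that led by Ptgs2 and Il1b, Bcl2a1b was at 8.62 to 26.3 CPM and Bcl2l11 at 66.55 to 137 CPM. Bcl2a1b was at 2.03 to 4.03 CPM in the Mpzl3-led and 0.565 to 10.25 CPM in the Wfdc17-led cluster. Bcl2l11 was at 25.4 to 35.3 CPM and 19.8 to 39.3 CPM in these. All 9 members tested were called, 7 higher and 2 lower, in a comparison that called 75.2% of 10934 genes, 33.8% higher and 41.4% lower (73.0% in all with DESeq2). The median of all genes was −0.20 with TMM scaling and −0.07 with DESeq2's size factors, and all 9 directions and calls held with both.

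**Figure D3:**
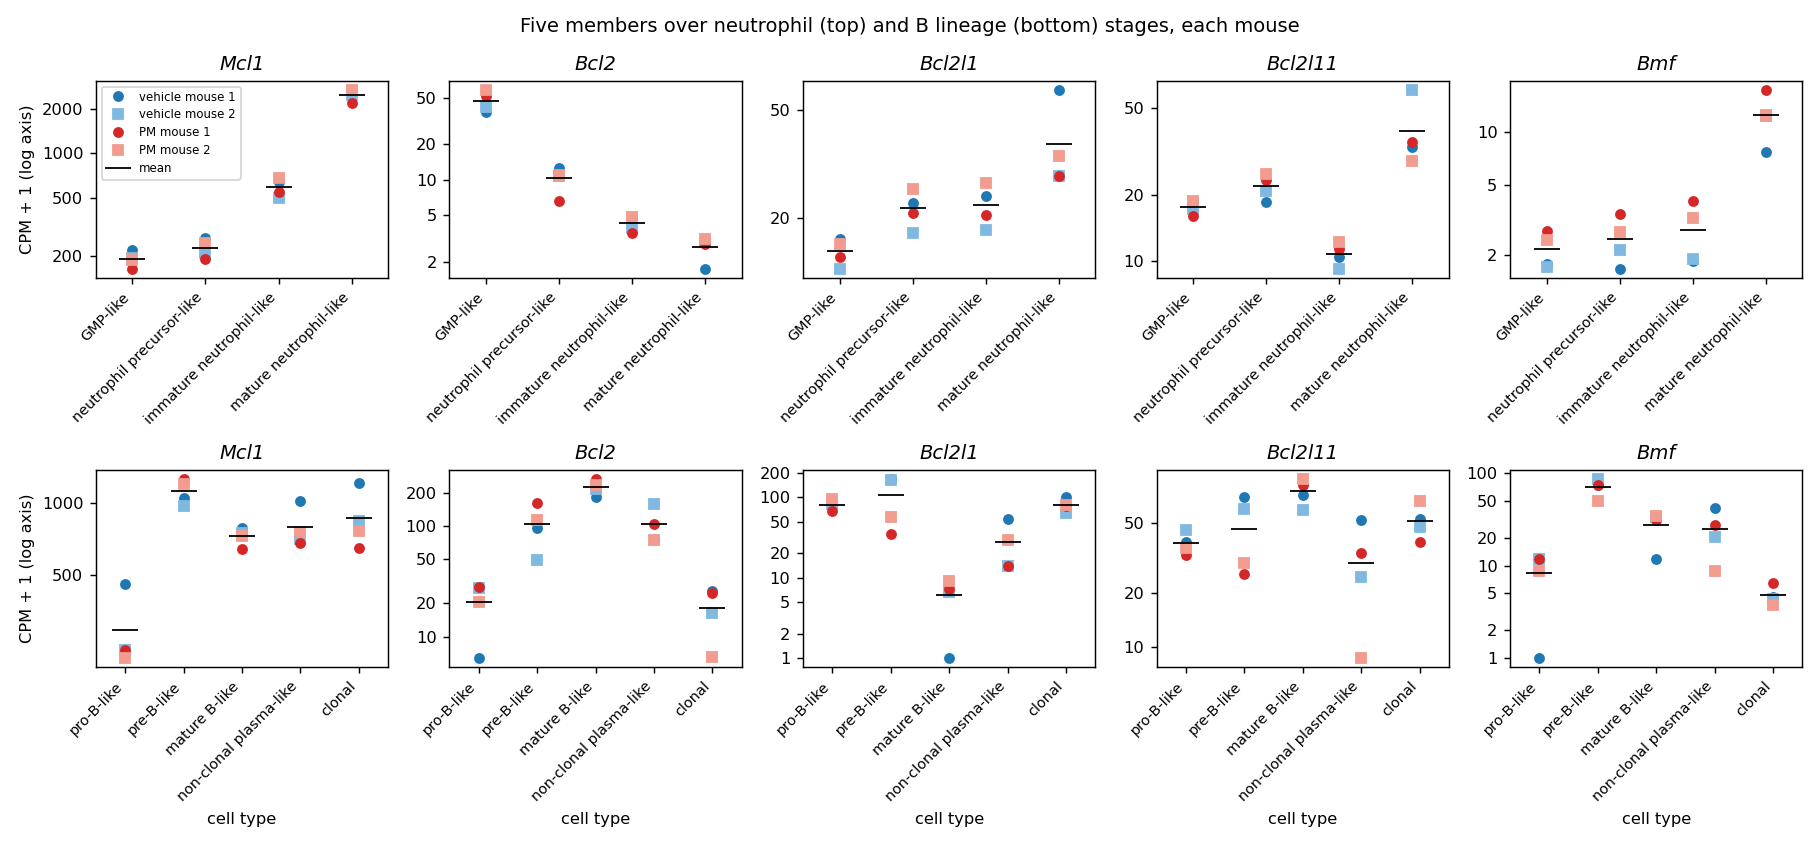
Levels of 5 members (CPM + 1, log axes that differ between panels) in each mouse over neutrophil stages (top) and B lineage types (bottom), with dashes at the means. Mcl1 rises and Bcl2 falls along the neutrophil stages, and along the B lineage Bcl2 is highest and Bcl2l1 lowest in mature B-like cells.

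Other BH3-only genes rose with neutrophil maturation too, Pmaip1 by 4.82, Bbc3 (PUMA) by 2.80 and Bnip3 by 2.75 on the log2 scale, and Bnip3l by 0.69. Lower in mature cells were Bcl2l12 (−2.56), Bcl2l2 (−2.39), Bcl2l15 (−2.38), Bcl2l13 (−1.23) and Bax (−0.64), so that 4 of 10 tested were higher and 5 lower. Downstream, 6 of 14 were higher, led by the inhibitor gene Birc3 (2.74), and 6 lower, led by Birc5 (−5.32) and Aifm1 (−2.42). All 9 regulators tested were called: Trib1 (3.55), Foxo3 (3.08), Fbxw7 (1.22), whose product marks MCL1 for destruction, and Usp9x (0.51) higher, and Huwe1 (−0.67), Dynll1 (−1.44), Bag3 (−1.99), Dnaja3 (−2.38) and Dynll2 (−2.49) lower. All values in this paragraph are after TMM scaling, and shares of UMIs were not compared for these genes. Small rises, such as those of Usp9x and Bnip3l, can rest on the scaling and need not be larger shares of UMIs.

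The treatment was examined next, first in plasma cells. In clonal cells no member was called between PM and vehicle mice by edgeR or by DESeq2 among 6 tested, where 0.358% of 8383 genes were called by edgeR and 0.131% by DESeq2. Mcl1 was nearest, at 1206 and 842 CPM with vehicle and 644 and 764 CPM with PM, which did not overlap (log2 fold change −0.58, SE 0.22, unadjusted p = 0.0131 by edgeR's model across genes, adjusted p = 0.376). It was the only member with an unadjusted p under 0.05, with either tool. Bid (0.42), Bcl2 (−0.17), Bak1 (−0.10), Bcl2l1 (−0.04) and Bcl2l11 (−0.02) were the others tested. In non-clonal plasma-like cells 0 of 6 were called, 0 had an unadjusted p under 0.05, the same held with DESeq2, and 0% of 5700 genes were called by edgeR. Whether PM acted differently on a member in clonal and non-clonal cells was tested as an interaction. Of 7 members tested none was called and none had an unadjusted p under 0.05, with edgeR or DESeq2, while 0.15% of 7995 genes were called by edgeR and 0.0125% by DESeq2. The SE of these differences were 0.25 for Mcl1 and 0.52 to 1.02 for the others.

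Across all 20 types, 137 of the 200 possible pairs of a member and a type could be tested, and 6 were called, 3 higher and 3 lower after PM. This is 4.38% of the pairs, and 1.84% of all 167059 tests of genes in these types were called, 1.27% higher and 0.573% lower. The calls were in 3 types: Bmf in immature neutrophil-like cells, Bcl2l11 in monocyte-like cells and Bcl2, Bcl2l1, Bcl2a1b and Bcl2l11 in pre-B-like cells. Outside pre-B-like cells 2 of 129 pairs were called. An unadjusted p under 0.05 was reached by 27 pairs (19.7%), and by 12.4% of all genes tested.

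**Figure D4:**
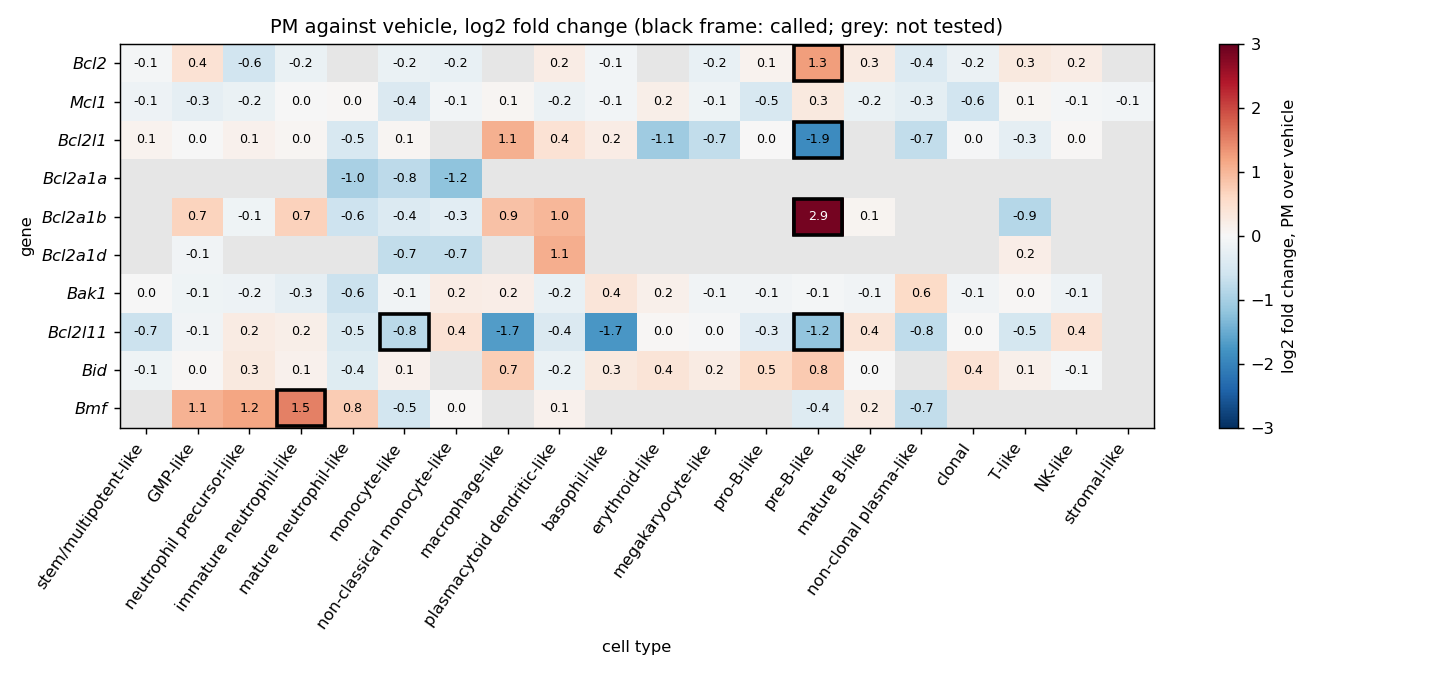
Log2 fold change of PM against vehicle for each gene (rows) in each cell type (columns), from the sums of 2 PM and 2 vehicle mice, with black frames around the 6 called pairs and grey where a gene was not tested. Pre-B-like cells hold 4 of the 6 frames, and for Bcl2l11 13 of 19 fields are below 0.

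Seen by gene, Bcl2l11 was lower after PM in 13 of 19 types tested (median log2 fold change −0.34). Beside its calls, unadjusted p under 0.05 were reached in basophil-like (−1.74, 15.9 and 23.4 CPM to 7.22 and 4.43 CPM), macrophage-like (−1.67, 52.7 and 62.3 CPM to 16.2 and 18.5 CPM) and stem-like cells (−0.65), with adjusted p of 0.353, 0.249 and 0.458. Mcl1 was lower in 15 of 20 types, within −0.58 to 0.30, and never called. For Bak1 13 of 19 types were lower, with −0.64 in mature neutrophil-like cells as the extreme (adjusted p = 0.0898). Bid was higher in 12 of 17 and Bmf in 7 of 10. The types share their mice, so these counts are not independent.

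Bmf in immature neutrophil-like cells was at 0.839 and 0.892 CPM with vehicle (14 and 11 UMIs) and at 3.04 and 2.26 CPM with PM (54 and 31 UMIs). The groups did not overlap (log2 fold change 1.52, SE 0.37, adjusted p = 0.0299, 7.52% of the genes called in this type). The call was lost without vehicle mouse 1 (adjusted p = 0.152), vehicle mouse 2 (0.0720) or PM mouse 1 (0.230), and with DESeq2 (0.124), which called 5.08% of genes. An interferon-stimulated cluster led by Ifit1 and Rsad2 gave 125 and 61 of these cells with vehicle and 605 and 370 with PM. In the other clusters of the class, taken singly, Bmf was at 0.618 and 0.600 CPM against 2.40 and 2.20 CPM (cluster led by Ltf, 1.79, adjusted p = 0.0585, 6.4% of genes called) and at 0.888 and 0.713 CPM against 2.80 and 2.44 CPM (cluster led by Orm1, 1.54, adjusted p = 0.0927, 4.82% of genes called). Neither was called, and in both the PM mice lay above the vehicle mice.

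Neighbouring stages gave values of the same sign without a call: Bmf differed by 1.05 in granulocyte-monocyte progenitor-like, 1.20 in neutrophil precursor-like and 0.75 in mature neutrophil-like cells (adjusted p = 0.346, 0.199 and 0.171). The mature class was made of different clusters in the groups, 1 led by Cstdc4 and Wfdc17 with 1502 and 580 cells of the vehicle and 51 and 149 of the PM mice, another led by Cstdc4 and Mpzl3 with 218 and 421 against 1844 and 1502. In these clusters and one led by Ptgs2 and Il1b, taken singly, no member was called by edgeR (0.122%, 0.821% and 0.651% of genes called). An unadjusted p under 0.05 was reached by Bid in the one led by Wfdc17, by Bak1 in the one led by Mpzl3 and by Bak1 and Bcl2l11 in the one led by Ptgs2, and DESeq2 was not run on single clusters. In monocyte-like cells Bmf had the other sign (−0.54, adjusted p = 0.110).

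Bcl2l11 in monocyte-like cells was at 68.2 and 59.1 CPM with vehicle and at 34.2 and 40.9 CPM with PM, which did not overlap (log2 fold change −0.81, SE 0.12, adjusted p = 0.0101, 1.94% of genes called in this type). DESeq2 called it too (adjusted p = 9.848e-04, 2.18% of genes called), and the call was lost without PM mouse 1 (0.206) or PM mouse 2 (0.0612). The class had a pair of clusters. In the one led by Vcan and Fn1, Bcl2l11 was at 99.7 and 90.8 CPM against 41.3 and 52.6 CPM and was called (−1.05, SE 0.14, adjusted p = 0.00270, 2.86% of genes called). In that led by Fn1 and F13a1 it was at 42.3 and 37.3 CPM against 29.9 and 33.5 CPM (−0.37, SE 0.14, adjusted p = 0.294, 1.36% of genes called). Whether the clusters differed in this was not tested.

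Pre-B-like cells had 4 of 8 tested members called, where 8.52% of 8402 genes were called. Bcl2l1, known as a survival gene of this stage, was at 168 and 163 CPM with vehicle and at 34.2 and 55.7 CPM with PM (log2 fold change −1.88, SE 0.23, adjusted p = 1.039e-12). Bcl2 was at 95.0 and 48.0 CPM with vehicle and 161 and 111 CPM with PM (1.25, SE 0.24, adjusted p = 2.107e-05). Bcl2l11 was at 69.1 and 59.1 CPM against 24.9 and 28.5 CPM (−1.19, SE 0.30, adjusted p = 0.00257). Bcl2a1b had 1 and 3 UMIs with vehicle and 16 and 16 with PM, or 4.32 and 2.09 CPM against 16.6 and 20.7 CPM (2.87, SE 0.74, adjusted p = 0.00276). It passed the filter on low counts only through the PM mice, where it was higher, so its call is weak support. Bcl2a1a had 0 UMIs in all 4 mice. The groups did not overlap for any of the 4. The Bcl2l1 call held without any 1 mouse and with DESeq2. That of Bcl2 was lost without vehicle mouse 2 (0.56, adjusted p = 0.468), that of Bcl2l11 without vehicle mouse 2 (0.119) or PM mouse 1 (0.0624), and that of Bcl2a1b without vehicle mouse 2 (0.466), PM mouse 1 (0.123) or PM mouse 2 (0.137). DESeq2, which called 1.87% of genes in this type, did not call these 3 (adjusted p = 0.232, 0.356 and 0.337).

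The makeup of the pre-B-like class moved with the treatment. At a finer clustering it split into a part led by Rag1 and Cecr2 and a part led by Ms4a1 and Tnfrsf13c. By the same naming rule, the finer cluster led by Rag1 was named pre-B-like. That led by Ms4a1 was named mature B-like (score 3.37, against 1.25 for the pre-B list). The Ms4a1-led part had Rag1 at 0 to 9.42 CPM and Ighd at 495 to 887 CPM. It was 85.94% and 79.45% of the class in the PM mice, whose pre-B-like cells were thus mostly mature B-like at this clustering. Rag1 encodes a recombinase of cells that still rearrange their immunoglobulin genes, and Ms4a1 and Tnfrsf13c are genes of later B cells. The Rag1-led part was 54.9% (95% Wilson interval 44.7 to 64.8) and 58.1% (54.0 to 62.1) of the class in the vehicle mice, of 91 and 563 cells, and 14.1% (10.9 to 17.9) and 20.6% (16.0 to 26.0) in the PM mice, of 384 and 253 cells. Rag1 itself was at 307 and 549 CPM with vehicle and 117 and 128 CPM with PM in the class, and Ms4a1 at 1378 and 1720 against 3148 and 2918 CPM. Neutrophil transcripts took 6.40‰, 7.59‰, 10.9‰ and 7.26‰ of the non-immunoglobulin UMIs.

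Within the parts no member was called by edgeR, and an unadjusted p under 0.05 was reached by Bcl2a1b and Bcl2l11 in the Ms4a1-led part and by none in the Rag1-led part, where DESeq2 was not run either. In the Ms4a1-led part S100a8, a neutrophil transcript, was at 812 and 714 CPM with vehicle and 3844 and 2413 CPM with PM, and Mki67 at 0 and 13.3 CPM against 58.6 and 59.7 CPM. In the Rag1-led part S100a8 was at 3138 and 4007 against 1484 and 690.5 CPM and Mki67 at 326 and 240.2 against 15.8 and 104 CPM. The part of these in the values of the members was not tested. Bcl2l1 was at 217, 266.5, 150.0 and 208 CPM in the Rag1-led part (log2 fold change −0.42, adjusted p = 0.529, 2.56% of 2896 genes called) and at 96.2, 18.3, 16.7 and 23.6 CPM in the Ms4a1-led part (−0.64, 1.33% of 7509 genes called). The groups did not overlap in the former, and in the latter only vehicle mouse 1, with 41 cells, stood apart. Bcl2 was at 14.5, 2.39, 31.6 and 7.42 CPM in the Rag1-led and 214, 111, 180.4 and 134 CPM in the Ms4a1-led part, where the groups overlapped (0.25). Bcl2l11 did not overlap between the groups in either part, with 72.5 and 69.3 CPM against 31.6 and 37.1 CPM in the Rag1-led part, where it could not be tested, and 64.1 and 44.9 CPM against 23.9 and 26.7 CPM in the Ms4a1-led part (−0.92, adjusted p = 0.432). Bcl2a1b had no UMI in the Rag1-led part and 10.7 and 4.98 CPM against 19.1 and 25.1 CPM in the other (1.88, adjusted p = 0.352).

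**Figure D5:**
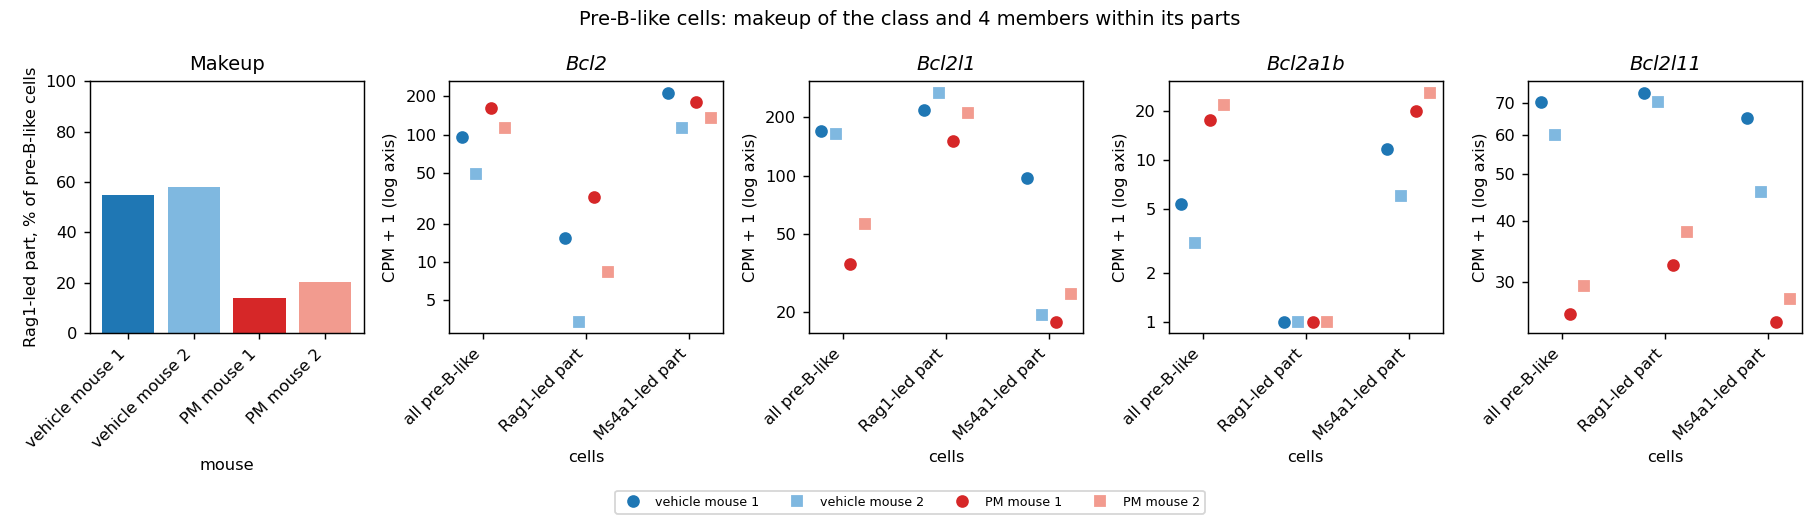
Left, percent of pre-B-like cells of each mouse in the Rag1-led part. Right, levels of 4 members (CPM + 1, log axes) in each mouse in the whole class and in its parts. The PM mice have a smaller Rag1-led part (14.1% and 20.6% against 54.9% and 58.1%). Within the parts the groups overlap for Bcl2 in both and for Bcl2l1 in the Ms4a1-led part. They lie apart, without a call, for Bcl2l11 in both, Bcl2l1 in the Rag1-led part and Bcl2a1b in the Ms4a1-led part.

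The rest of the pathway is read against the 1.84% of all tests that were called after PM. Of the other BCL2 family genes 0 of 149 pairs with a cell type were called by edgeR and 0 by DESeq2, with an unadjusted p under 0.05 for 15 and 7 pairs. Of the downstream genes 1 of 251, Cycs in immature neutrophil-like cells (−0.52, adjusted p = 0.0266), was called, and of the regulators 4 of 165 (3 and 2 with DESeq2). In pre-B-like cells Trib2 (−1.13, adjusted p = 4.565e-06) and Trib1 (−0.81, adjusted p = 0.0143), pseudokinase genes, were lower and Dynll2 (1.14, adjusted p = 0.0312) higher by edgeR. Dynll1, whose product binds BIM, was lower in mature neutrophil-like cells (−1.05, adjusted p = 0.0258). The makeup of both these classes differed between the groups of mice, as given above, and its part in these calls was not tested.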

How the data were processed

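Droplet-based single-cell libraries of unsorted bone marrow from 4 mice were analysed, 1 library per mouse. The deposited values were whole-number UMI counts per gene and barcode, made by the authors with Cell Ranger 6.0.1 according to the file headers. The study's methods name GRCm38 as the reference and the submitters' processing notes name GRCm39 and STAR, and coordinates and sequences here are on GRCm38. Cells with fewer than 300 genes or over 20% mitochondrial UMIs were left out. With scanpy 1.11.5, 2500 variable genes, 30 principal components and 15 neighbours were used for Leiden clustering (leidenalg 0.10.2) at a resolution of 1. A cluster was named when at least 3 markers of a list were raised and its score led the next by 0.3. Doublets were called by Scrublet at a score of 0.2 and kept in the main results. Endothelial-like cells were left out because vehicle mouse 1 had under 10 of them.

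For each mouse, the counts of a type's cells were added up, leaving out immunoglobulin genes. These sums were tested in R 4.3.3 with edgeR 4.0.16 (TMM scaling, filterByExpr, robust quasi-likelihood test), with condition as the only term for PM and with the mouse as a block between classes or stages of the same mice. A gene was called at an adjusted p (Benjamini-Hochberg over all genes tested) under 0.05 and an absolute log2 fold change over 0.5. DESeq2 1.42.0, other filters and scalings and leaving out each mouse were the alternatives, and the procedure was tested on simulated data. Leiden resolutions of 0.5 and 1.5 were alternatives for the levels only. The tests of whole cell types, classes and stages were not run again at these resolutions. With 2 mice per group, an exact permutation test of a single value cannot go below p = 0.33, so none was run. The p-values rest on a spread that edgeR estimated with the help of all genes, not on these mice alone. Between classes or stages the mouse was a block, so there the spread is that of the difference within mice. Libraries held 69828595 to 109447030 UMIs, and counting error grows as sums get small. UMIs are given for some of the genes where they were few, but not for all.

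The named genes were the 10 members, called genes of 3 lists (other BCL2 family, downstream death pathway, regulators of MCL1 and BIM) with values at their extremes, and for each member the 2 genes most alike across types, among those with at least 20 CPM in a type. Some genes of the downstream list were counted but are not reported here by name. The members, lists and tests were chosen with earlier results of these data known.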

Additional observations from a re-analysis of the deposited data

Results flagged for a closer look

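The difference in the PM effect between cell types was tested in 14 cases, chosen because the member was called in 1 of the types and the groups of mice lay apart in opposite directions in both types. All 14 passed edgeR's quasi-likelihood test of the difference itself, but the choice was made on the same values and favoured passing. Of all genes in the same fits, from 32 of 6664 (pre-B-like against NK-like cells) to 797 of 12231 (immature neutrophil-like against monocyte-like cells) were called. Values are differences of log2 fold changes.

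For Bmf, the effect in immature neutrophil-like cells was 2.10 above that in monocyte-like cells (SE 0.35, adjusted p = 6.942e-04). For Bcl2l11, the effect in monocyte-like cells differed by −1.23 from that in NK-like cells (adjusted p = 9.8e-04), by −1.01 from immature neutrophil-like (6.552e-04), by −1.21 from mature B-like (5.454e-04) and by −1.05 from neutrophil precursor-like cells (0.00100).

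The other cases involve pre-B-like cells, whose makeup differed between the groups of mice, and its part in these differences was not tested. The effect on Bcl2 there was 1.43 above that in monocyte-like cells (adjusted p = 1.655e-04) and 1.23 above that in stem-like cells (0.00293). For Bcl2l1 it differed by −2.88 from macrophage-like cells (SE 0.56, adjusted p = 1.522e-04). For Bcl2a1b it was 3.71 above T-like (SE 0.74, adjusted p = 0.00246) and 3.15 above monocyte-like cells (SE 0.92, adjusted p = 0.0216). Both rest on the few Bcl2a1b UMIs of pre-B-like cells in the vehicle mice, given above. For Bcl2l11 it differed by −1.65 from NK-like (adjusted p = 0.0389), by −1.38 from immature neutrophil-like (0.00841), by −1.60 from mature B-like (0.00211) and by −1.39 from neutrophil precursor-like cells (0.00397).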

How the results depend on the processing

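The 6 pairs of a member and a cell type called between PM and vehicle were the count that moved most. DESeq2 called 2, both among the 6. Leaving out each mouse gave 2 to 7 calls, and of the 6 pairs 5 remained without vehicle mouse 1, 2 without vehicle mouse 2, 2 without PM mouse 1 and 4 without PM mouse 2. With single clusters of 4 classes 1 member was called, and with the pre-B-like class split at a resolution of 1.5 the count was 2, both alternatives chosen after seeing the data. Counted over all called pairs and alternatives, those of classes and stages included, no value reversed. Of these values, 277 kept their side of the threshold and 16 fell short of it. Among class or stage pairs, DESeq2 kept 17 of 18 and every other alternative kept all that it tested. Another clustering resolution was not among these alternatives. Nearly all of the losses were therefore of PM pairs.

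With the replicate number as a block 6 pairs were called, the same 6. Over the 20 types, the replicate differences of the vehicle and PM groups correlated over genes with r of −0.183 to 0.254. With only a single such difference per group, this cannot show whether same-numbered mice shared a batch. No source used here says that they did. A crossed pairing, added after seeing the data, also called 6.

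Between classes and stages, 5 members were called in clonal against non-clonal cells (4 with DESeq2 and 4 without the mouse as a block), 4 between B cell stages (4 to 6 over the alternatives) and 9 between neutrophil stages (8 to 10). Without the filter on low counts 8 PM pairs were called. The interaction gave 0 calls under every alternative run. At a resolution of 0.5, 5 of 10 members kept the type of their highest level, since non-classical monocyte-like and NK-like cells were not separate there. The A1 copies and Bmf rest on few UMIs in many types.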

Other observations

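Of 3 unnamed clusters 1 held the clonal cells, and the other two entered no comparison. One of these, led by Prok2, Retnlg and Gpr27, held 3925 cells. Its Mcl1 level was 1356 and 1209 CPM in the vehicle and 1069 and 1343 CPM in the PM mice. Bmf was at 1.04 and 1.72 CPM with vehicle and 8.19 and 2.29 CPM with PM, and Bcl2l11 at 9.86 and 11.5 CPM against 14.1 and 16.9 CPM, so the PM mice lay above the vehicle mice for both, without a test. Bid was at 46.3 and 51.6 CPM against 41.4 and 37.4 CPM. The other cluster, led by Ms4a1, Fcmr and Fcer2a, held 309 cells, of which 79.9% were called doublets. Its Bcl2 level was 43.0, 43.1, 59.3 and 89.8 CPM.

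Within the mature neutrophil-like class, the cluster led by Ptgs2 and Il1b (233, 430, 145 and 129 cells) had differences after PM of −0.76 for Bcl2l11 (adjusted p = 0.216) and −1.08 for Bak1 (adjusted p = 0.233), neither called by edgeR. In the interferon-stimulated cluster of the immature class, Bmf was at 2.78 and 9.45 CPM with vehicle and 5.55 and 2.03 CPM with PM, which overlapped.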
